A study of Macaca mulatta with 13 samples.

Results

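The genes described here are the myogenic transcription factors and satellite cell genes of skeletal muscle. They were chosen by name: 6 genes were listed, MYF5, MYOD1, MYF6, MYOG, PAX7 and CDH15. The platform annotation gave 1 probe set each to 5 of them, so 5 of the 52766 non-control probe sets are members, and MYOG was not analysed here. All 5 probe sets were kept whatever their brightness. The tissue was the vastus lateralis, the large lateral thigh muscle, of 13 aged male rhesus monkeys (Macaca mulatta), with 1 one-colour Affymetrix array per animal. In the calorie restricted (CR) group there were 8 animals of 27 to 32 years, and in the group on the control diet there were 5 animals of 27 to 30 years. The restriction had lasted 18.5 years when the tissue was taken. Age is known per group only, and each sample is a piece of whole muscle with all its cell types.

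Satellite cells are the stem cells of skeletal muscle, which lie between a fibre and its basal lamina and are quiescent in uninjured muscle. The paired-box factor PAX7 marks them and is needed to maintain them, and CDH15 encodes M-cadherin, an adhesion molecule at the contact between satellite cell and fibre. When satellite cells are activated, the basic helix-loop-helix factors MYF5 and MYOD1 commit them to the muscle lineage, myogenin (MYOG) drives their differentiation, and MYF6 (also called MRF4) acts late and is the myogenic factor that mature fibres express most strongly. These factors pair with E proteins to bind E-boxes in muscle genes, and MEF2 factors act with them. MYF5 and MYF6 are neighbours in the genome, with no other protein-coding gene between them in the RefSeq gene table of the rhesus assembly T2T-MMU8v2.0.

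The 2% trimmed mean of the signals was 500 on every array. Between 2 arrays r lay between 0.831 and 0.890 across the 52766 probe sets, which are no independent replicates. The 8 measured markers of mature fibres had mean signals between 2779 (TTN, titin) and 123665 (TNNT3, fast skeletal troponin T), so the fibre markers of the labelled tissue were present. Their summed signal ran from 431814 to 681152 in CR animals and from 339518 to 672531 in control animals. The lowest of these sums belonged to control replicate 4, and control replicate 3, at 389734, also lay below every CR animal. The summed signal of fibroblast markers was 40665 to 99105 in CR animals. It was 141637 in control replicate 4 and 35548 to 81766 in the other control animals. The summed signal of endothelial markers was 4626 to 11059 in CR animals. It was 18897 in control replicate 4, 13027 in control replicate 5 and 6681 to 7048 in the other control animals. CR replicate 8 had the lowest summed signal of slow fibre markers, 22233, with 85208 to 535498 in the other CR animals. Values without control replicate 4 or CR replicate 8 are given beside the results that these animals move most. In whole muscle, fewer cells of a type and less RNA per cell cannot be told apart.

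None of the 5 genes passed the test between the diets. The mean was higher in CR animals for MYF5, MYOD1, MYF6 and CDH15 (4 of 5, where 50.2% of all probe sets were higher) and slightly lower for PAX7, and the diets overlapped for each of the 5. In the test across all probe sets (limma on log2 signals, two-sided, Benjamini-Hochberg adjustment) the adjusted p was 0.999 for every member. At an adjusted p under 0.05, 0% of all 52766 probe sets were called, and at an unadjusted p under 0.05 it was 3.38% of all and 0 of the 5 members. The diets did not overlap for 0.0929% of all probe sets and for 0 of the members. Signals depend on the probes as well as on the transcript, so levels are compared between animals and not between genes.

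**Figure D1:**
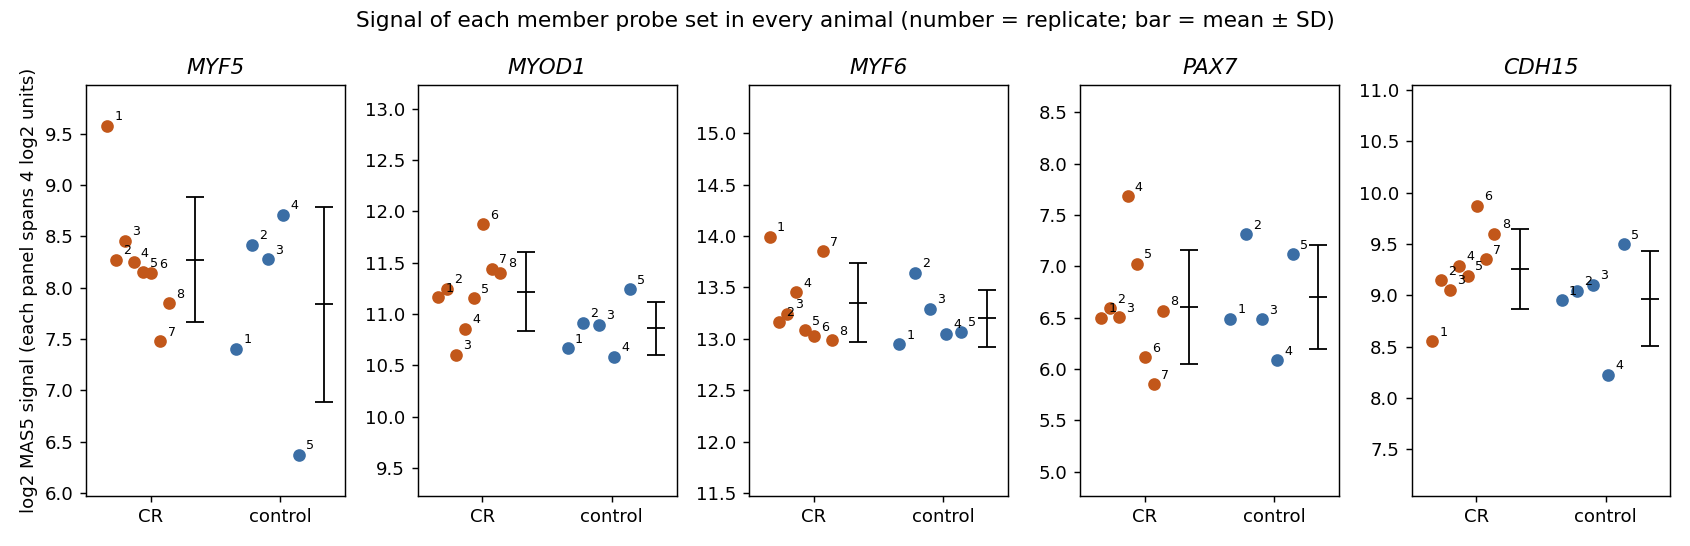
Log2 MAS5 signal of the 5 member probe sets in every animal, 1 panel per gene, with the 8 CR animals left of the 5 control animals; numbers are replicate numbers, and the bar shows the mean ± SD of each diet. The diets overlap in each panel, and the widest scatter is that of MYF5, with CR replicate 1 at the top and control replicate 5 at the bottom.

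MYF5 is the first of the myogenic factors to appear in the embryo and, in mice, most quiescent satellite cells have expressed it. In CR animals its signal ran from 178 to 764 with a median of 294. In control animals replicates 1 to 5 had 170, 342, 311, 419 and 82.9. One CR animal, replicate 1, lay above every control animal, no CR animal lay below the lowest control animal, and the highest animal of all had 9.22 times the signal of the lowest, which was control replicate 5. On the log2 scale the mean was 8.27 ± 0.61 in CR animals (SD, n = 8) and 7.84 ± 0.95 in control animals (SD, n = 5). The difference was 0.43 ± 0.38 (SE), with a 95% interval from -0.36 to 1.23, that is from 0.781-fold to 2.34-fold. The difference was smaller than the SD of either diet (exact permutation test, two-sided, p = 0.355). It was 0.069 without control replicate 5, 0.25 without CR replicate 1 and 0.65 without control replicate 4, so its size rested on single animals.

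MYOD1 is the factor that can turn fibroblasts into muscle cells in culture, and its protein appears when satellite cells are activated. Its signal ran from 1555 to 3759 in CR animals with a median of 2362. In control animals replicates 1 to 5 had 1625, 1929, 1905, 1535 and 2421. CR replicates 2, 6, 7 and 8 lay above every control animal, while CR replicates 3 and 4 lay within the lower part of the control range. The log2 mean was 11.22 ± 0.38 in CR animals (SD, n = 8) and 10.86 ± 0.26 in control animals (SD, n = 5). The difference of 0.36 ± 0.19 (SE) corresponds to 1.28-fold, and its 95% interval ran from 0.973-fold to 1.69-fold. Of the 5 members MYOD1 had the lowest unadjusted p in limma's test, 0.0753 (exact permutation test, two-sided, p = 0.102), but it did not pass. With any 1 animal left out the difference stayed between 0.26 and 0.45. The MYOD1 probe set carries the suffix that Affymetrix gives to probe sets whose probes can match more than 1 transcript, so other transcripts may add to its signal.

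MYF6, the factor of mature fibres, ran from 8120 to 16331 in CR animals with a median of 9451. In control animals replicates 1 to 5 had 7913, 12805, 10041, 8474 and 8598. The highest values were those of CR replicates 1 and 7, which lay above every control animal, and the other CR animals fell within the control range. The log2 mean was 13.35 ± 0.38 in CR animals (SD, n = 8) and 13.20 ± 0.28 in control animals (SD, n = 5). The difference was 0.15 ± 0.20 (SE), with a 95% interval from 0.835-fold to 1.48-fold (exact permutation test, two-sided, p = 0.462). Without CR replicate 1 it was 0.059, without CR replicate 7 it was 0.079, without control replicate 1 it was 0.088 and without control replicate 2 it was 0.26. The highest MYF6 signal of any animal was 2.06 times the lowest, which made it the least variable of the 5 genes by that measure.

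PAX7, the satellite cell factor, was the one member in the dimmer 50% of probe sets, those with a mean signal under 107. Its signal ran from 57.7 to 206 in CR animals with a median of 92.7. In control animals replicates 1 to 5 had 90.0, 159, 89.7, 67.9 and 139. The highest animal was CR replicate 4 and the lowest CR replicate 7, so the CR animals enclosed the whole control range. The log2 mean was 6.60 ± 0.56 in CR animals (SD, n = 8) and 6.70 ± 0.50 in control animals (SD, n = 5). The difference of -0.095 ± 0.38 (SE) had a 95% interval from 0.535-fold to 1.64-fold (exact permutation test, two-sided, p = 0.768). Its sign was not fixed: leaving out 1 animal at a time gave values from -0.25 to 0.058. No detection call was used, so how far the probe set stood above background is not known.

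CDH15, encoding M-cadherin, ran from 376 to 938 in CR animals with a median of 605. In control animals replicates 1 to 5 had 496, 528, 551, 299 and 723. CR replicates 6 and 8 lay above every control animal, and the lowest animal of all was control replicate 4. The log2 mean was 9.26 ± 0.39 in CR animals (SD, n = 8) and 8.97 ± 0.46 in control animals (SD, n = 5). The difference was 0.29 ± 0.23 (SE), with a 95% interval from 0.873-fold to 1.72-fold (exact permutation test, two-sided, p = 0.250). A higher log2 value than the control mean was seen in 7 of 8 CR animals, but also in control replicates 2, 3 and 5. Without control replicate 4 the difference was 0.11, and without control replicate 4 and CR replicate 8 together it was 0.058.

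**Figure D2:**
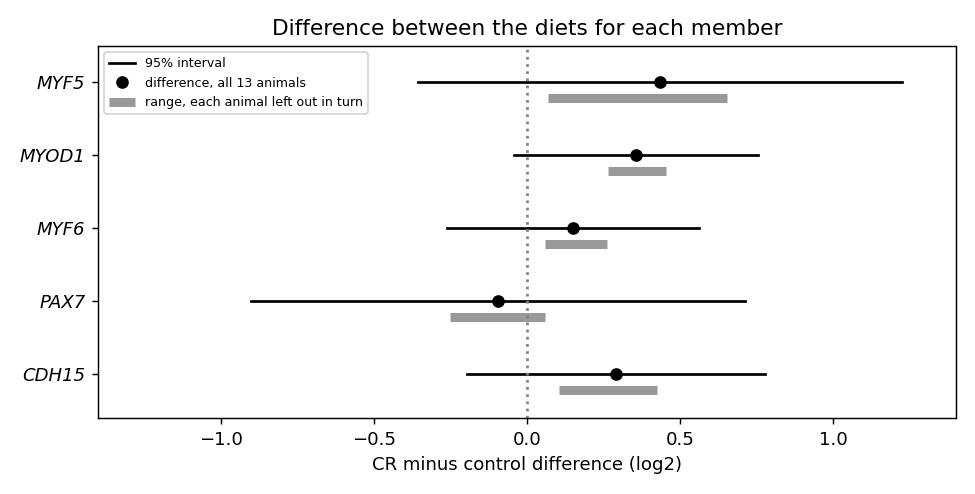
CR minus control difference of each member on the log2 scale, with its 95% interval (black line) and the range of differences when each animal was left out in turn (grey bar). Every interval includes 0; the MYF5 difference spans 0.069 to 0.65 between animals left out, and that of PAX7 crosses 0.

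The members did not move as 1 block from animal to animal. Over the 13 animals, MYOD1 and CDH15 varied in the same direction (Pearson r = 0.72, Spearman rho = 0.74), and MYF5 and CDH15 in opposite directions (r = -0.57, rho = -0.68). These are descriptions without a test: all 10 pairs of members were computed, and the points share the array, its scaling and the same piece of muscle. With each diet's mean taken out, r was 0.67 for MYOD1 with CDH15 and -0.74 for MYF5 with CDH15. Animals were left out in values pooled over the diets, where r was 0.72 and -0.57. Leaving out control replicate 4 and CR replicate 6, the animals farthest from the median CDH15 value, gave 0.44 for MYOD1 with CDH15. Much of that pooled relation thus came from this pair of animals. For MYF5 with CDH15 the same omission took the pooled r from -0.57 to -0.72. Leaving out the animals farthest in MYF5, control replicate 5 and CR replicate 1, took it from -0.57 to -0.42.

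The r values rest in part on the animals at the ends, so the order of these animals restates the pattern and is no separate support. Control replicate 4 had the highest MYF5 signal among control animals and the lowest MYOD1, PAX7 and CDH15 signals, whereas control replicate 5 had the lowest MYF5 and the highest MYOD1 and CDH15. Among CR animals, replicate 1 had the highest MYF5 and MYF6 and the lowest CDH15, and replicate 6 had the highest MYOD1 and CDH15. MYF5 and its genomic neighbour MYF6 had r = 0.43 (rho = 0.48), which was 0.10 without CR replicate 1 and 0.65 without CR replicate 7. For PAX7 the r lay between -0.24 with MYOD1 and 0.13 with CDH15. Both moved with single animals: without control replicate 4 they were -0.42 and -0.12, so that the second changed sign, and without CR replicate 6 they were -0.061 and 0.34.

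**Figure D3:**
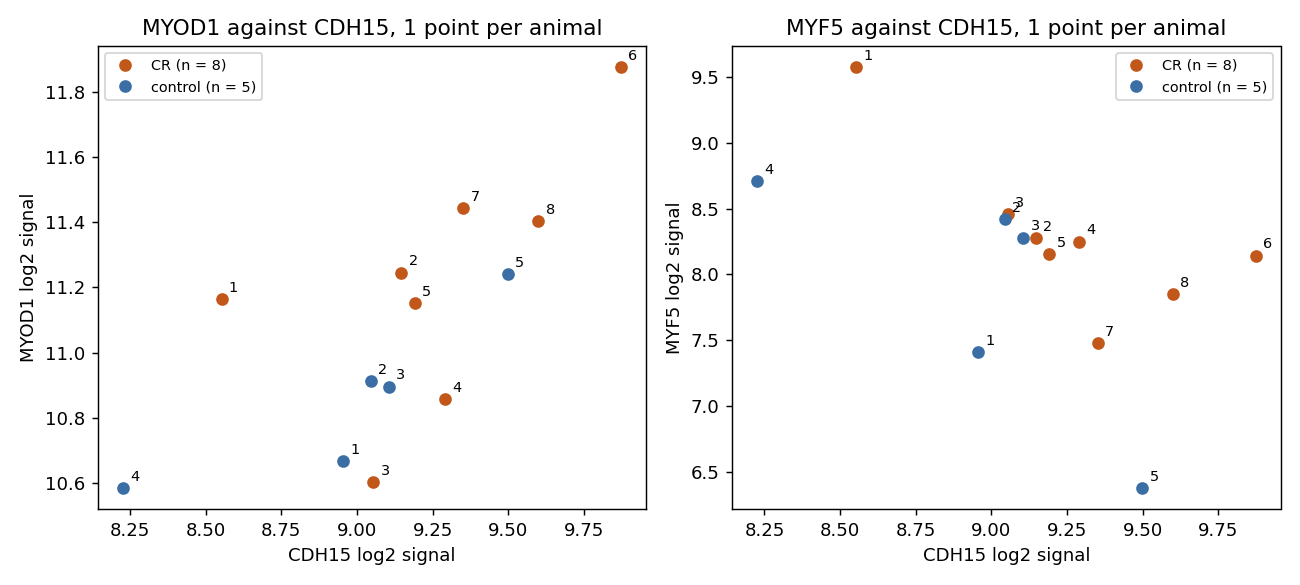
Log2 signal of MYOD1 (left) and MYF5 (right) against that of CDH15, 1 point per animal with its replicate number; CR animals are orange and control animals blue. MYOD1 is high where CDH15 is high (r = 0.72, n = 13), and MYF5 is low there (r = -0.57, n = 13).

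Some marker lists of other cell types and of fibre types varied along with some members. Lists were read as mean log2 signals, with the diet means taken out. Every member was set against every list, and the fibroblast and fast fibre lists are described because they held the strongest r. For PAX7, r lay between -0.23 with the endothelial list and 0.22 with the fast fibre list. CDH15 was low where the 6 measured markers of fibroblasts and fibro-adipogenic progenitors were high (r = -0.79, and -0.67 without control replicate 4). It was high where the 8 measured fast fibre markers were high (r = 0.71, and 0.69 without control replicate 4). MYF5 ran the other way, with r = 0.59 for the fibroblast list and -0.61 for the fast fibre list, and MYOD1 had r = -0.64 with the fibroblast list but 0.11 with the fast fibre list. Without control replicate 4 these were 0.47 and -0.55 for MYF5 and -0.63 and 0.034 for MYOD1. Pooled over the diets, the Spearman rho of CDH15 was -0.56 with the fibroblast list and 0.53 with the fast fibre list. The pooled Pearson r was -0.77 and 0.71. For MYF5 rho was 0.54 and -0.33 (r = 0.54 and -0.53), and for MYOD1 -0.46 and 0.13 (r = -0.59 and 0.18). CR replicate 1 had both the lowest CDH15 signal and the lowest summed fast fibre signal of the CR animals, and the highest MYF5 signal. No r with the lists was computed without CR replicate 1. The summed fibroblast signal was 40665 to 99105 in CR animals and 35548 to 141637 in control animals, and the summed fast fibre signal 347978 to 722945 in CR animals and 343424 to 606150 in control animals. The lowest value of any fibroblast marker in any animal was 262 and of any fast fibre marker 243, so none was near 0. The part of cell makeup in the relations among members was not tested.

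The other satellite cell markers gave a mixed picture. NCAM1, ITGA7, CALCR, MEGF10 and VCAM1 were all measured, with a summed signal of 6084 to 11576 in CR animals and 5948 to 8703 in control animals. ITGA7 weighed most in this sum, with a mean signal of 5241, and CALCR least, with 106. As a list of mean log2 signals these markers had r = 0.61 with MYF5, -0.62 with CDH15 and -0.23 with PAX7, diet means taken out. MYF5 and CDH15 thus had opposite signs against the same list. Without control replicate 4 the values were 0.52 for MYF5, -0.46 for CDH15 and -0.038 for PAX7. Pooled over the diets, Spearman rho was 0.29 for MYF5, -0.47 for CDH15 and -0.25 for PAX7. Control replicate 5, the lowest animal in MYF5, had a CALCR signal of 7.08, with 57.7 to 127 in the other control animals. It also had the highest CDH15 signal of the control animals. No r with this list was computed without control replicate 5, so how far these values rest on it is not known. ITGA7 and NCAM1 are also made by other cells of muscle, fibres and nerve among them. Ratios that track RNA quality also varied with members. Over the 13 animals, the log2 3-prime over 5-prime ratio of the GAPDH control probe sets had r = -0.59 (rho = -0.51) with PAX7 and 0.47 (rho = 0.58) with MYOD1. Its rho was -0.48 with MYF5, 0.46 with CDH15 and -0.35 with MYF6. The actin ratio had r = -0.65 (rho = -0.57) with MYF6. The GAPDH ratio was 0.71 ± 0.13 in CR animals (SD, n = 8) and 0.58 ± 0.23 in control animals (SD, n = 5), and the actin ratio 1.74 ± 0.31 in CR animals and 1.75 ± 0.38 in control animals. The part of RNA quality in the levels was not tested beyond its use as a covariate, which gave a diet difference of 0.64 for MYF5, 0.25 for MYOD1, 0.19 for MYF6, 0.16 for PAX7 and 0.27 for CDH15.

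**Figure D4:**
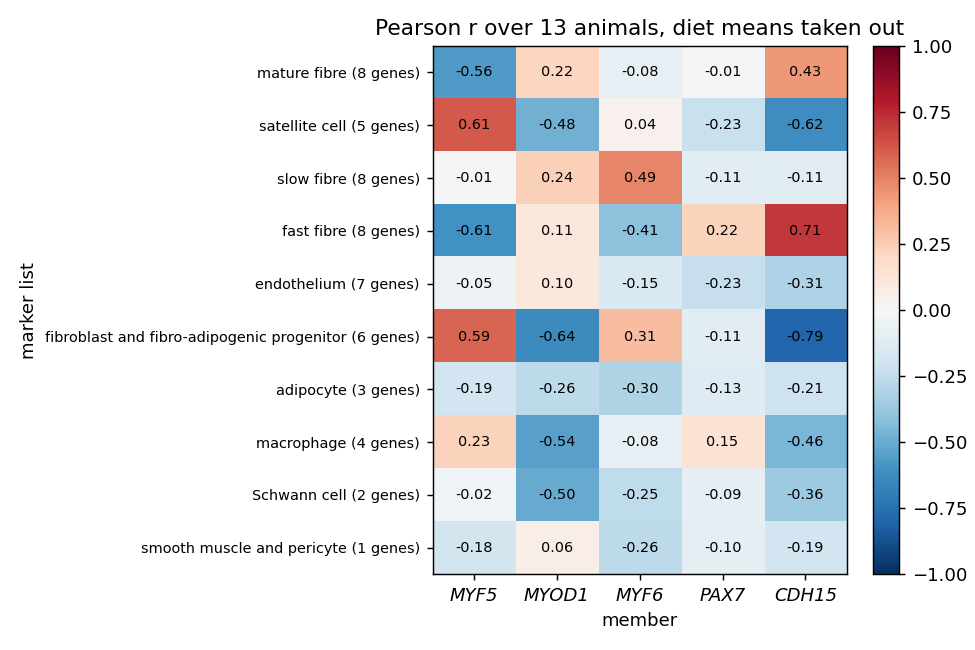
Pearson r over 13 animals between each member (columns) and the mean log2 signal of each marker list (rows, with the number of genes measured), after each diet's mean was taken out; red is positive and blue negative. The strongest cells are CDH15 with the fibroblast list (-0.79) and with the fast fibre list (0.71); the satellite cell row leaves the members out.

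For each member the 2 genes with the most similar profile over the 13 animals were sought among 9808 other genes in the brighter 50% of probe sets, by r with diet means taken out. They were picked as the highest of so many values, so no test is given. MYF5 was closest to CDK8, the kinase of the Mediator complex (r = 0.94), and to TUSC3, a subunit of the oligosaccharyltransferase complex (r = 0.90). CDH15 was closest to TMEM38A, the TRIC-A cation channel of the sarcoplasmic reticulum (r = 0.91), and to LOC714171 (r = 0.90). MYF6 was closest to GET4, which helps to insert tail-anchored proteins (r = 0.87), and to NUDT16L1 (r = 0.85). MYOD1 was closest to TMEM102 (r = 0.87) and to the Wnt co-receptor gene LRP5 (r = 0.84), and PAX7 to QTRT1, which modifies transfer RNAs (r = 0.82), and the RNA-binding protein gene CAPRIN1 (r = 0.81). Among the members, the profiles of CDH15 and MYF5 were the more widely shared. An r above 0.7 was reached by 3.67% of the 9808 genes for CDH15 and 2.49% for MYF5, and by 0.245% to 0.571% for the other members. These shares were not computed for genes outside the members, nor without the animals farthest in each member. Pooled over the diets and without the 2 animals farthest in the member, r was lower for 9 of the 10 pairs than with diet means taken out. It was 0.79 for MYF5 with CDK8 and 0.75 with TUSC3, 0.75 for CDH15 with TMEM38A and 0.74 with LOC714171. For MYF6 it was 0.65 with GET4 and 0.80 with NUDT16L1, for MYOD1 0.54 with TMEM102 and 0.57 with LRP5, and for PAX7 0.87 with QTRT1 and 0.60 with CAPRIN1. Both the pooling and the omission enter these values. Pooled with all 13 animals kept, r was 0.64 for MYOD1 with TMEM102, 0.63 with LRP5, and 0.77 to 0.93 for the other pairs.

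Genes that act with the myogenic factors also did not pass the test. Of 92 such genes in 5 lists, 78 were measured, and 0 were called higher and 0 lower in CR animals at an adjusted p under 0.05, against 0% of all 14132 genes. At an unadjusted p under 0.05 there were 4 of the 78 (5.13%), against 2.38% of all genes with 1 probe set each. A higher mean in CR animals was seen for 29 of the 78 (37.2%) and in 50.8% of all genes, with a median difference of -0.062 in the lists and 0.0058 over all genes. That balance rested on single animals: 42 of the 78 were higher without control replicate 4, 39 without CR replicate 8, and 48 without both.

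Among partners and co-activators, which include the E proteins, the MEF2 factors and the EYA factors, 7 of 12 measured genes were higher in CR animals and the median difference was 0.094. The genes with the lowest p were SMARCD3, a chromatin remodelling subunit that works with MYOD1 (0.31 ± 0.22, SE, log2), and EYA4 (0.24 ± 0.17) on the higher side. On the lower side they were the acetyltransferase gene EP300 (-0.43 ± 0.26) and MEF2D (-0.25 ± 0.19). SMARCD3 was at 0.11 without control replicate 4, and EP300 at -0.28. EYA4 was at 0.15 and MEF2D at -0.40 without control replicate 1, and at 0.38 and -0.16 without control replicate 3. Among inhibitors, which hold the ID proteins that sequester E proteins and the Notch effectors of the HES and HEY families, 6 of 14 were higher, with a median of -0.063. SNAI1, a zinc finger repressor, differed by 1.43 ± 0.59 and HES1 by 0.36 ± 0.28, while ID4 differed by -0.31 ± 0.32 and HEY1 by -0.17 ± 0.26. SNAI1 was dim, at 43.1 to 159 in CR animals, against 27.8, 107, 7.88, 28.8 and 71.2 in control replicates 1 to 5, and the diets overlapped. Without control replicate 3 SNAI1 differed by 0.90 and HES1 by 0.21. ID4 was at -0.010 and HEY1 at -0.032 without control replicate 4, and the median of the inhibitors was then 0.096.

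In the list of satellite cell surface, Notch and niche genes, 7 of 22 were higher in CR animals with a median of -0.11, and 10 of 22 with a median of -0.023 without control replicate 4. FGF2, a growth factor that activates satellite cells, had a log2 mean of 6.26 ± 0.58 in CR animals (SD, n = 8) and 4.76 ± 1.78 in control animals (SD, n = 5). The calcitonin receptor gene CALCR differed by 0.93 ± 0.59 (SE, log2), or 0.17 without control replicate 5, so its size rested on that animal. Both were dim, and FGF2 ran from 49.4 to 136 in CR animals with control replicates 1 to 5 at 7.07, 51.8, 34.2, 134 and 8.83. VCAM1, an adhesion molecule of satellite cells and endothelium, differed by -0.58 ± 0.37 and the caveolin gene CAV1 by -0.34 ± 0.27. Control replicate 4 was the highest control animal for both, with 1268 for VCAM1 and 8589 for CAV1, and without it the differences were -0.19 and -0.10.

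The list of fusion genes and targets of the myogenic factors was measured in its targets only, since MYMK, MYMX and CDH2 were not analysed here. Of the targets, 4 of 17 were higher in CR animals with a median of -0.13. MYL4, the embryonic and atrial light chain, differed by -0.63 ± 0.28 (SE, log2). Its probe set carries the same suffix as that of MYOD1, so other transcripts may add to its signal. TNNT2, the cardiac troponin T that developing skeletal muscle also makes, differed by -1.36 ± 0.63. TNNT2 ran from 112 to 447 in CR animals, while control replicates 1 to 5 had 258, 450, 1184, 4175 and 101, so control replicates 2, 3 and 4 stood above every CR animal and control replicate 5 below. Without control replicate 4 the differences were -0.49 for MYL4 and -0.64 for TNNT2, and 9 of the 17 genes were higher with a median of 0.010. ANKRD1, a muscle stress ankyrin repeat protein, differed by 0.92 ± 0.47, or 0.30 without control replicate 5, and CKM, muscle creatine kinase, by 0.29 ± 0.23, or 0.17 without control replicate 4 and 0.12 after quantile normalization.

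Of growth signals that act on satellite cells, 5 of 13 were higher in CR animals with a median of -0.059, or 8 of 13 with a median of 0.020 without control replicate 4. WNT4 differed by 0.85 ± 0.69 (SE, log2) and SMAD2, which carries myostatin and activin signals, by 0.084 ± 0.15. ACVR2B, the receptor for myostatin, differed by -0.42 ± 0.26 and the Wnt receptor gene FZD7 by -0.23 ± 0.19. Without control replicate 4 the values were 0.020 for SMAD2, -0.63 for ACVR2B and -0.34 for FZD7. SMAD2 turned to -0.020 without both control replicate 4 and CR replicate 8, and FZD7 was at -0.11 without control replicate 2. WNT4 was dim, with a mean signal of 64.5. None of these genes passed limma's test, and none did with any 1 animal left out.

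**Figure D5:**
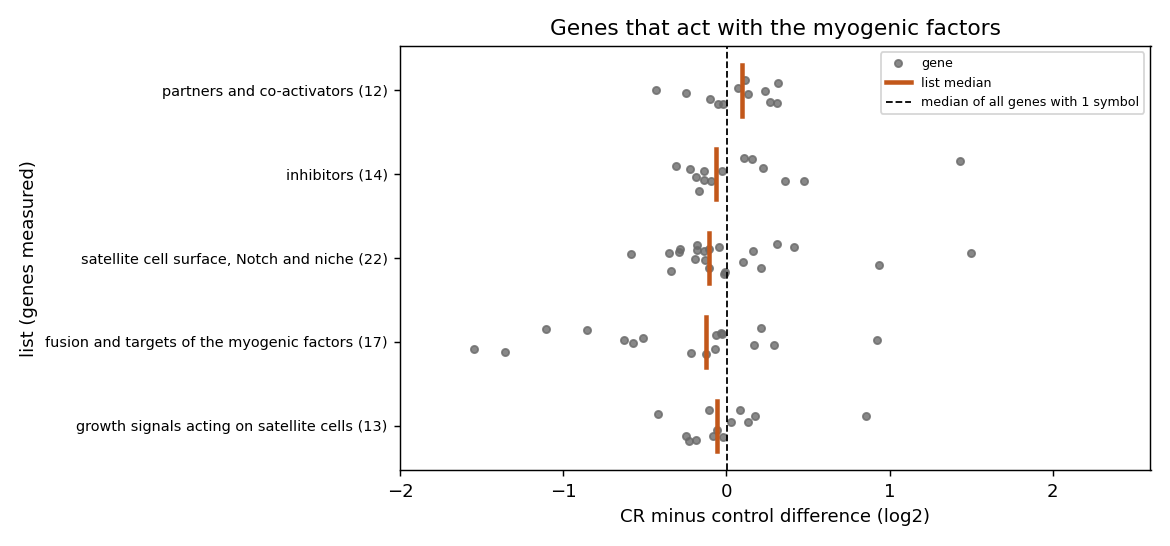
CR minus control difference (log2) of the measured genes in 5 lists that act with the myogenic factors, 1 point per gene, with the list median (orange) and the median of all genes (dashed). Points lie on both sides of 0 in each list, with medians between -0.13 and 0.094.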

How the data were processed

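The deposited values are linear intensity values, 1 per array and probe set, summarised by the authors with MAS5 (no version named), per the submitters' processing notes. RNA was extracted with Trizol and labelled with biotin, per the labels' protocols. Of 52865 probe sets 99 controls were left out. Values under 1 (137, of which 0 of members) were raised to 1 before the log2 transform. Symbols came from the platform annotation, with 24956 probe sets carrying 1 symbol. Each array is scaled to the same trimmed mean, which would hide a shift shared by most transcripts of 1 animal. All 52766 probe sets were fitted in limma 3.58.1 (R 4.3.3; lmFit, then eBayes with a trend), and p-values were adjusted over all of them. The exact permutation test used the 1287 splits of the 13 animals, whose smallest p is 0.000777. Genes of the lists were read from their brightest probe set. Named genes were the members, for each the 2 genes most like it, and per list the 2 of lowest p on each side. The members and lists were chosen with earlier results of these data known. The labels call the animals biological replicates, and no batch or date was used. The limma fit alone was checked on simulated data, with noise drawn independently for each probe set and array. The exact permutation test was not checked in this way. Alternatives were quantile normalization, median centring, an offset of 16, leaving out the dimmer 50%, no trend, array weights, RNA quality covariates, a replicate block, and omission of each animal. Leaving out control replicate 4 and CR replicate 8 together, and other settings for the correlations, were chosen after seeing the data. Figures were drawn with matplotlib 3.10.9. The number of arrays limits the precision.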

Additional observations from a re-analysis of the deposited data

Results flagged for a closer look

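Within each diet, a single animal at a distance from all others was looked for in each of the 5 members. In 10 groups this gave 1, where chance gives about 1 in 20, or 0.5. CR replicate 1 had the highest log2 signal of MYF5 in its group, 9.58, with the next CR animal at 8.46.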

How the results depend on the processing

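No member and no gene of the related lists passed the adjusted threshold under any of 22 alternatives, 1 animal left out at a time included. Of 109 recomputed differences 104 kept their sign, and the 5 that turned were all of PAX7: 0.16 with the RNA quality covariates, 0.16 with the replicate block, and a range of -0.25 to 0.058 with 1 animal left out. PAX7 has no value with the dimmer 50% left out. With 1 animal left out the differences ran from 0.069 to 0.65 for MYF5, 0.26 to 0.45 for MYOD1, 0.059 to 0.26 for MYF6 and 0.11 to 0.42 for CDH15. The labels do not say that the replicate numbers pair the animals. Deviations of same-numbered animals correlated with r from -0.20 to 0.020, and 0 of 5 CR animals correlated best with their own number. A pairing that leaves little trace in the signals could not be seen in this way. With the replicate block the differences were 0.70 for MYF5, 0.14 for MYOD1, 0.19 for MYF6 and 0.081 for CDH15, where CR replicates 6, 7 and 8 add nothing, and no call changed. Over all probe sets the count past the threshold was 0, and 1 without control replicate 1; at an unadjusted p under 0.05 it was 1783, and 641 of the 26383 brighter ones. The 95% intervals of the members leave room for differences of up to 1.48-fold to 2.34-fold.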
